A study of Mus musculus with 8 samples.

Results

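Telomeres are the repeats that cap chromosome ends, and telomerase is the enzyme that adds them back. Telomerase holds a reverse transcriptase (Tert), an RNA template (Terc) and a core of RNA-binding proteins around dyskerin (Dkc1). Shelterin is the protein complex that sits on the repeats and keeps chromosome ends from being read as breaks. Telomerase activity is low in most mature tissues and is known mainly from germ cells, stem cells and cells that divide.

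The levels of 10 genes of these 2 groups are described here in nuclei of mouse visceral white adipose tissue. They were chosen by gene symbol and are Tert, Dkc1 and Rtel1 on the telomerase side, and Terf1, Terf2, Terf2ip, Tinf2, Acd, Pot1a and Pot1b, which encode shelterin. All 10 were found among 56749 counted features. The study prepared nuclei from snap-frozen fat of 8 mice, sorted them by flow cytometry after DNA staining, and counted their RNA with the 10x Genomics 3′ chemistry, in which each captured molecule carries a unique molecular identifier (UMI). It holds 4 groups of 2 mice, named here by genotype, diet and the number in the label. Mice rep144 and rep146 had the genotype p21+/mCherry and ate standard diet (mCherry SD). Mice rep128 and rep129 had the same genotype on high-fat diet (mCherry HFD). Mice rep134 and rep136 were p21+/mCherry-Tert (Tert HFD) and rep138 and rep140 were p21+/mCherry-TertCi (TertCi HFD), all on high-fat diet. All 8 mice thus carried 1 modified allele of p21, the cell-cycle inhibitor encoded by Cdkn1a, and the design text says that the p21 promoter drives the Tert and TertCi transgenes. The labels give no age, sex or strain, and do not say what distinguishes TertCi from Tert. Per their protocol, tissue was handled 2 samples at a time in random order, but they do not say which mice shared a batch. Whether a batch coincides with a group is therefore not known, and its part in the group differences was not tested. The design text names the stromal vascular fraction and p21+/- mice, whereas the sample labels name whole visceral fat and p21+/mCherry, and the labels were followed.

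The libraries held 23378488 to 139749876 UMIs each, and 30209 nuclei were kept, 1978 to 7433 per mouse. Clusters were named from marker genes into 4350 adipocyte-like, 5206 progenitor-like and 8536 macrophage-like nuclei, smaller endothelial-like (913), mural-like (411) and dendritic-like (569) classes, and a mesothelial-led mixed cluster of 1239 nuclei. A further 8725 nuclei carried markers of several types and are called mixed. They made up 63.0% and 57.0% of nuclei in the mCherry SD mice, 17.8% and 16.6% in mCherry HFD and 18.9% to 37.6% in the transgenic mice. Comparisons over all nuclei thus set different mixes of classes against each other, and the part of this was not tested. Mature adipocyte markers were present throughout, so the nuclei match the fat label. Adipocyte-like nuclei were few in the mCherry HFD mice (99 and 27, against 339 to 1540 in the other 6), and macrophage-like nuclei were few in the mCherry SD mice (101 and 156, against 267 to 3764). Of 228 epithelial-like nuclei, 227 came from mCherry HFD rep128. No 2 libraries shared more than 0.348% of the barcodes of the smaller one. None of the 10 genes was among the 2000 variable genes used for clustering.

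Levels are given as CPM, the gene's UMIs per 1000000 UMIs summed over the nuclei of a class in one mouse. Intervals drawn in the plots are exact Poisson 95% intervals and cover counting error only. CPM values of different genes are not compared with each other, since they are not scaled by gene length. Levels are read beside the level in barcodes of 1 to 100 UMIs, which hold RNA that was free in the suspension. Changes between groups were tested with the quasi-likelihood test of edgeR on UMIs summed per mouse, in all nuclei and in each of the 3 large classes. A gene is said to have risen or fallen only where its Benjamini-Hochberg adjusted p over all tested genes was under 0.05. With 2 mice per group, these p-values rest on a spread shared by all groups. The SE given with an edgeR difference is the size of that difference divided by the square root of its F statistic. It is derived from the test and not estimated separately. The comparisons of both transgenic groups with mCherry HFD, and the diet comparison, share the 2 mCherry HFD mice. How often other genes separate the groups of mice was not counted. An order of mice, or groups that do not overlap, is thus a description and not a result.

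The modified locus was checked first. Cdkn1a stood at 1.16 and 1.94 CPM in all nuclei of the mCherry SD mice, 12.4 and 9.61 CPM in mCherry HFD, 7.05 and 2.88 CPM in Tert HFD, and 5.44 and 3.70 CPM in TertCi HFD. It rose with high-fat diet (log2 fold change 2.37, SE 0.38, adjusted p = 0.00283). The feature for mCherry collected 13 UMIs in all nuclei, 10 of them in mCherry HFD rep128, and says nothing about the genotype of the other mice. No source used here says whether transcripts of the modified allele end in a stretch that is counted as Tert, so the Tert level does not check the genotype either.

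Tert, the catalytic subunit of telomerase, was sparse and unevenly spread over the classes. It gave 664 UMIs in all nuclei, and Terc, which lacks the poly(A) tail of messenger RNA in its mature form, gave 0. Over mice, Tert averaged 5.09 ± 2.93 CPM (SD, n = 8) in progenitor-like nuclei, 2.04 ± 1.29 CPM (SD, n = 8) in adipocyte-like nuclei and 0.609 ± 1.01 CPM (SD, n = 8) in macrophage-like nuclei. Progenitor-like nuclei were above macrophage-like nuclei in 8 of 8 mice and above adipocyte-like nuclei in 6 of 8. The mesothelial-led mixed nuclei (5.12 ± 3.42 CPM, SD, n = 8) and mural-like nuclei (4.66 ± 4.35 CPM, SD, n = 7) stood beside the progenitor-like nuclei, and the ranges of all neighbours in this order overlapped. No Tert UMI was seen in dendritic-like nuclei of 6 mice.

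Free RNA carried Tert at 3.37 ± 0.749 CPM (SD, n = 8). Progenitor-like nuclei exceeded the low-UMI barcodes of the same mouse in 6 of 8 mice. The exceptions were both Tert HFD mice, whose progenitor-like levels are thus within the background. Outside mCherry HFD these levels rest on few UMIs, given below, and counting error was not weighed. The tally therefore does not set Tert HFD apart from TertCi HFD. Macrophage-like nuclei were below them in 8 of 8 and adipocyte-like nuclei in 7 of 8, so the Tert UMIs of those 2 classes are not read as expression.

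**Figure D1:**
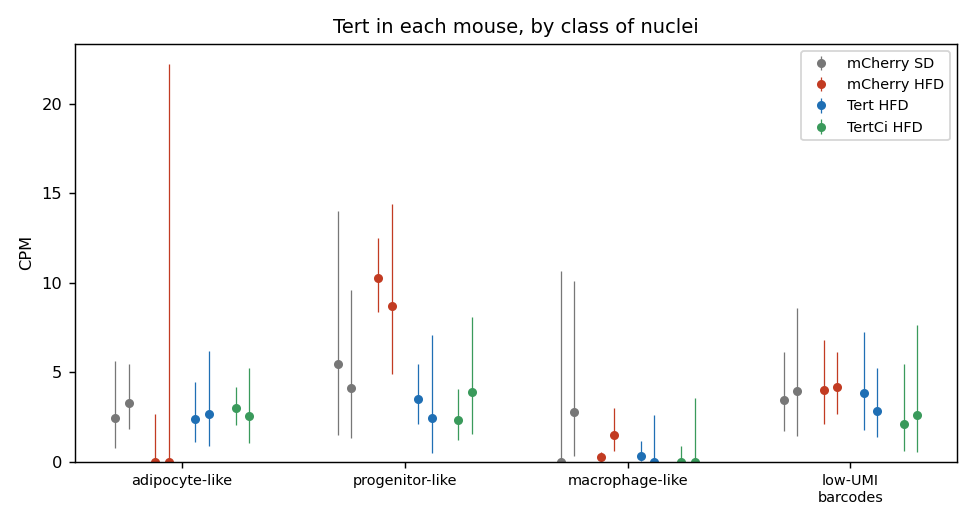
Tert level in CPM (vertical axis) for each mouse (points, coloured by group) in adipocyte-like, progenitor-like and macrophage-like nuclei and in low-UMI barcodes; bars are exact Poisson 95% intervals. Progenitor-like nuclei of the 2 mCherry HFD mice stand at 10.3 and 8.73 CPM, above the other 6 mice.

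In progenitor-like nuclei Tert stood at 5.47 and 4.11 CPM in mCherry SD mice (4 and 5 UMIs), and at 10.3 and 8.73 CPM in mCherry HFD mice (100 and 15 UMIs). It stood at 3.49 and 2.42 CPM in Tert HFD mice (19 and 3 UMIs), and at 2.32 and 3.92 CPM in TertCi HFD mice (12 and 7 UMIs). The mCherry HFD mice were the highest pair, and neither transgenic group overlapped them, an order that was not counted over other genes. Tert was lower in Tert HFD than in mCherry HFD by a log2 fold change of -1.47 (SE 0.43, adjusted p = 0.0492), and lower in TertCi HFD by -1.57 (SE 0.44, adjusted p = 0.0254). The difference with diet was 0.86 (SE 0.52, adjusted p = 0.304) and did not pass. Of all genes tested in progenitor-like nuclei, 11% were called in Tert HFD against mCherry HFD, 19.8% in TertCi HFD against mCherry HFD and 12.8% with diet.

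These calls rested on few UMIs. Tert passed the filter on low counts in this class through the 2 mCherry HFD mice alone, the group where it was high, so the calls are a description and support nothing. Without that filter the adjusted p was 0.0688 in Tert HFD and 0.037 in TertCi HFD, and DESeq2 called neither (0.32 and 0.24). The call in Tert HFD held in 1 of 13 alternative settings, with adjusted p from 0.039 to 0.413, and was lost without each of the 8 mice in turn (adjusted p = 0.0576 without mCherry SD rep144 to 0.413 without mCherry HFD rep128). The call in TertCi HFD held in 7 of 13 settings and was lost without mCherry HFD rep128 (adjusted p = 0.315), mCherry HFD rep129 (0.102), TertCi HFD rep138 (0.323) or TertCi HFD rep140 (0.055). The clusters behind the class also differed between groups. Cluster 13, led by Meg3, Gpc6 and Col8a1, held 50.4% and 52.4% of progenitor-like nuclei in the mCherry HFD mice but 0.465% to 16.1% in the other 6. In that cluster Tert stood at 15.2 and 12.0 CPM in the mCherry HFD mice (72 and 10 UMIs), 4.64 and 0 CPM in the Tert HFD mice (2 and 0 UMIs), and 12.98 CPM in TertCi HFD rep138 (2 UMIs), and the other mice had under 20 nuclei in it. In clusters 0 and 7 it stood at 4.16 to 6.54 CPM in the mCherry HFD mice, 2.52 to 4.10 CPM in the Tert HFD mice, 0 to 3.02 CPM in the TertCi HFD mice and 0 to 8.76 CPM in the mCherry SD mice. Without cluster 13, Tert in progenitor-like nuclei was 5.49 and 4.18 CPM in mCherry SD, 5.61 and 5.64 CPM in mCherry HFD, 3.39 and 2.90 CPM in Tert HFD, and 1.99 and 2.36 CPM in TertCi HFD. These values rest on few UMIs. Clusters 0 and 7 held 4 and 0 in mCherry SD rep144, 1 and 4 in rep146, 4 and 24 in mCherry HFD rep128 and 1 and 4 in rep129. They held 11 and 6 in Tert HFD rep134, 2 and 1 in rep136, 8 and 2 in TertCi HFD rep138 and 4 and 0 in rep140. The mice are therefore not ranked, and Tert no longer had enough UMIs to be tested. Summed adipocyte markers in progenitor-like nuclei were 1274 and 1293 CPM in mCherry HFD and 1922 to 2771 CPM in the other mice. Summed cycling, mural and monocyte markers were highest in the mCherry HFD mice, at 41.9 and 45.4 CPM against 8.21 to 33.8 CPM, 265 to 355 CPM against 108 to 247 CPM, and 1479 to 1689 CPM against 550 to 1269 CPM. Endothelial markers were lowest there, at 67.9 to 82.1 CPM against 88.5 to 154 CPM, and macrophage markers overlapped, at 476 to 605 CPM against 281 to 671 CPM. The part of these in the Tert levels was not tested.

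In all nuclei Tert was 3.56 and 3.71 CPM in mCherry SD mice, 3.82 and 3.88 CPM in mCherry HFD, 2.35 and 1.44 CPM in Tert HFD and 2.49 and 2.76 CPM in TertCi HFD. On this scale the 4 transgenic mice were below the 4 others. After TMM scaling the mCherry HFD and TertCi HFD mice overlapped, below the mCherry SD mice and above the Tert HFD mice, with 4.15 and 3.84 CPM in mCherry SD, 2.99 and 3.15 CPM in mCherry HFD, 2.12 and 1.68 CPM in Tert HFD, and 2.64 and 3.21 CPM in TertCi HFD. The fitted differences were -0.38 with diet, -0.65 in Tert HFD and -0.08 in TertCi HFD, and no comparison passed (adjusted p = 0.321 with diet, 0.143 for Tert HFD and 0.844 for TertCi HFD against mCherry HFD). The sums over all nuclei mix the share of each class with the level in it, and these cannot be told apart there. In adipocyte-like nuclei no Tert UMI was found in the mCherry HFD mice, where 3 UMIs would give 2.19 and 18.1 CPM. These sums are too small to show an absence of Tert there. The other 6 mice stood at 2.36 to 3.31 CPM.

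Dkc1 encodes dyskerin, the pseudouridine synthase that binds and stabilises the telomerase RNA and also guides the modification of ribosomal RNA. Tinf2 encodes TIN2, the shelterin bridge between the TERF proteins and the protein encoded by Acd. These 2 genes were highest in the mCherry HFD mice in all nuclei and in the 3 large classes, and gave most of the calls. For Tinf2 in adipocyte-like nuclei, mCherry HFD rep129 rests on too few UMIs to rank it. After TMM scaling it stood there at 4.86 CPM, beside 4.85 CPM in Tert HFD rep136. Their promoters, the 250 bases before the RefSeq start of each gene, are shown to set them side by side. Dkc1 is at chrX:75095604-75095853 (plus strand) and Tinf2 at chr14:55681818-55682067 (minus strand), both in GRCm38.p6. Capitals mark matches on either strand to GGGCGG (GC box), CCGGAAG (ETS), CACGTG (E-box) or TTAGGG (the telomere repeat).
Dkc1: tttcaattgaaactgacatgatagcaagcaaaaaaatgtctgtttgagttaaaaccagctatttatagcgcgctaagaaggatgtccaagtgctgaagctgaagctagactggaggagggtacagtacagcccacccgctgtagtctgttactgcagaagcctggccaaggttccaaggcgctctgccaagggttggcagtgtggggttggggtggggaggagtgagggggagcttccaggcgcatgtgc
Tinf2: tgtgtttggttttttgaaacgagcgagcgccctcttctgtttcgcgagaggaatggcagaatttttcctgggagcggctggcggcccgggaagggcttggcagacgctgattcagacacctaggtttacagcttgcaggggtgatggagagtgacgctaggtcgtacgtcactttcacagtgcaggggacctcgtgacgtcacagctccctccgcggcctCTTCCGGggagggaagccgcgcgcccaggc
The Dkc1 stretch held none of the 4 motifs, and the Tinf2 stretch held 1 ETS match, a motif found in 6.91% of 32851 mouse promoter stretches of this length.

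Dkc1 in all nuclei was 10.4 and 11.3 CPM in mCherry SD mice, 28.8 and 28.99 CPM in mCherry HFD, 11.7 and 6.69 CPM in Tert HFD, and 6.81 and 6.52 CPM in TertCi HFD. The mCherry HFD mice were above the other 6, a separation that was not counted over other genes. Among those 6 the Tert HFD mice overlapped the TertCi HFD mice and enclosed the mCherry SD mice. Dkc1 rose with diet by 0.95 (log2 fold change, SE 0.19, adjusted p = 0.00744) and was lower than in mCherry HFD by -1.31 in Tert HFD (SE 0.20, adjusted p = 0.00575) and by -1.64 in TertCi HFD (SE 0.20, adjusted p = 0.00107). These 3 calls held in 14 of 14 alternative settings each.

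Tinf2 in all nuclei was 3.62 and 4.25 CPM in mCherry SD mice, 14.1 and 12.0 CPM in mCherry HFD, 6.59 and 3.41 CPM in Tert HFD, and 2.78 and 3.09 CPM in TertCi HFD. Here too the mCherry HFD mice were above the other 6, and how often other genes show this order was not counted. Tinf2 rose with diet by 1.27 (SE 0.27, adjusted p = 0.0082), a call lost without mCherry HFD rep128 (0.057). It was lower by -1.69 in TertCi HFD (SE 0.27, adjusted p = 0.00345), a call kept in 14 of 14 settings. It was lower by -1.03 in Tert HFD (SE 0.27, adjusted p = 0.0318). That call was lost without mCherry HFD rep128 (0.158) or rep129 (0.0996), Tert HFD rep136 (0.135), or TertCi HFD rep138 (0.0569) or rep140 (0.0606).

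**Figure D2:**
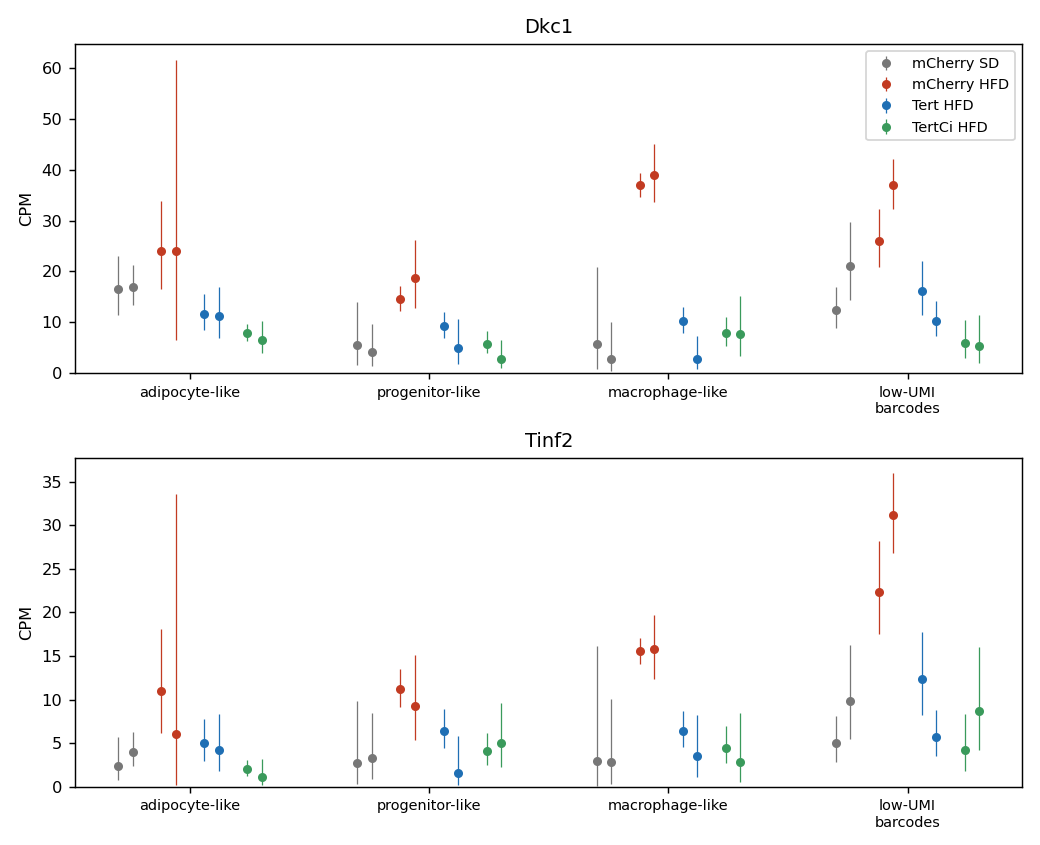
Levels of Dkc1 (upper panel) and Tinf2 (lower panel) in CPM for each mouse, coloured by group, in 3 classes of nuclei and in low-UMI barcodes; bars are exact Poisson 95% intervals. In macrophage-like nuclei the mCherry HFD mice stand at 37.0 and 39.1 CPM for Dkc1 and at 15.5 and 15.8 CPM for Tinf2, and low-UMI barcodes of the same mice are high as well.

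In macrophage-like nuclei the fitted differences of both genes were larger than in all nuclei, though the 2 sets were not tested against each other. Dkc1 was 5.79 and 2.79 CPM in mCherry SD mice (2 UMIs each), 37.0 and 39.1 CPM in mCherry HFD (1029 and 186 UMIs), 10.2 and 2.84 CPM in Tert HFD (62 and 4 UMIs), and 7.81 and 7.67 CPM in TertCi HFD (33 and 8 UMIs). It rose with diet by 3.16 (SE 0.60, adjusted p = 0.00369) and was lower by -2.18 in Tert HFD (SE 0.36, adjusted p = 0.00245) and by -2.13 in TertCi HFD (SE 0.38, adjusted p = 0.00256). The diet call was lost without mCherry SD rep146 (0.122) and the TertCi call without TertCi HFD rep138 (0.0694).

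Tinf2 was also highest in the mCherry HFD mice, with 2.90 and 2.79 CPM in mCherry SD mice (1 and 2 UMIs), 15.5 and 15.8 CPM in mCherry HFD (432 and 75 UMIs), 6.39 and 3.55 CPM in Tert HFD (39 and 5 UMIs), and 4.50 and 2.88 CPM in TertCi HFD (19 and 3 UMIs). Only the mCherry HFD mice were above 7 CPM. Tinf2 rose with diet by 2.31 (SE 0.62, adjusted p = 0.0226), and was lower by -1.40 in Tert HFD (SE 0.35, adjusted p = 0.0179) and by -1.79 in TertCi HFD (SE 0.39, adjusted p = 0.00698). Its diet call was lost without any 1 of mCherry SD rep144 (0.0843) and rep146 (0.224) and mCherry HFD rep128 (0.0958) and rep129 (0.0659). The Tert HFD call was lost without mCherry HFD rep128 (0.169) or rep129 (0.0975) or Tert HFD rep136 (0.0622), and the TertCi HFD call without mCherry HFD rep128 (0.0735) or TertCi HFD rep138 (0.0833). With DESeq2 the diet and Tert HFD calls of Tinf2 were lost (adjusted p = 0.088 and 0.0873).

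The macrophage-like class was built from different clusters in different groups. Clusters 2, 3 and 14 held most of it in the mCherry HFD mice (44.0%, 34.5% and 19.8% in rep128, and 28.8%, 48.6% and 18.3% in rep129). Cluster 4, led by F13a1, Cd163 and Mctp1, held 88.1% and 89.1% in the mCherry SD mice, 63.2% and 40.9% in Tert HFD, 67.4% and 62.6% in TertCi HFD, but 0.531% and 1.10% in mCherry HFD. Within clusters 2, 3 and 14, Dkc1 was 30.6 to 44.8 CPM in the mCherry HFD mice and 6.97 to 12.7 CPM (2 to 6 UMIs) in Tert HFD rep134, the other mouse with at least 20 nuclei in them. In cluster 11 the groups overlapped, with 19.2 and 7.80 CPM in mCherry HFD (5 and 1 UMIs), 17.9 and 5.01 CPM in Tert HFD (20 and 4 UMIs), and 13.5 and 5.32 CPM in TertCi HFD (16 and 2 UMIs). The second mCherry HFD value, at 1 UMI, is below the 23.4 CPM that 3 UMIs would give there. In cluster 4 alone, 1 mCherry HFD mouse had enough nuclei (20, with 3 Dkc1 UMIs), so the spread came from the other groups and the fit had little power to call a gene. Neither gene was called there. The differences for Dkc1 were 2.63 with diet, -1.89 in Tert HFD and -1.61 in TertCi HFD (adjusted p = 0.442, 0.582 and 0.616). For Tinf2 they were 3.36, -2.67 and -3.01 (adjusted p = 0.243, 0.342 and 0.264).

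**Figure D3:**
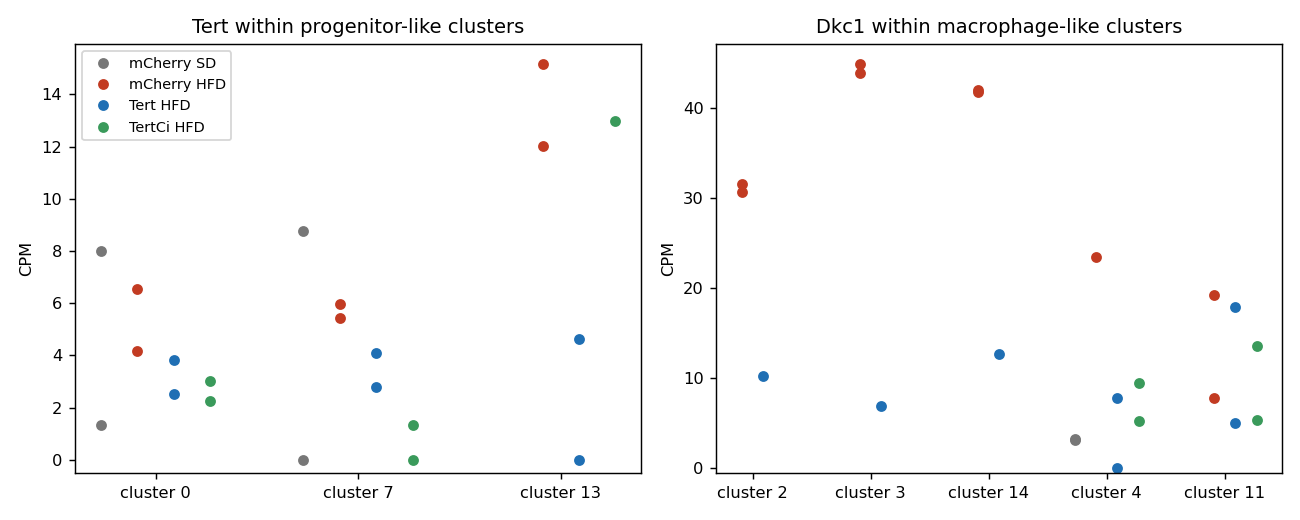
Tert within progenitor-like clusters (left) and Dkc1 within macrophage-like clusters (right), in CPM for each mouse with at least 20 nuclei of the cluster; colours are groups. Dkc1 in clusters 2, 3 and 14 is 30.6 to 44.8 CPM in the mCherry HFD mice and 6.97 to 12.7 CPM in Tert HFD rep134, and the groups overlap in cluster 11.

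Several properties of the libraries moved with Dkc1 and Tinf2. In low-UMI barcodes Dkc1 was 26.1 and 37.0 CPM in the mCherry HFD mice and 5.23 to 21.1 CPM in the other 6, and Tinf2 was 22.4 and 31.1 CPM against 4.25 to 12.3 CPM. Tinf2 in the low-UMI barcodes was above adipocyte-like and progenitor-like nuclei of the same mouse in 8 of 8 mice and above macrophage-like nuclei in 7. Dkc1 there was above progenitor-like nuclei in 8 of 8 mice, above adipocyte-like nuclei in 4 and above macrophage-like nuclei in 4. Levels in nuclei at or below those of free RNA are not read as expression. The 407 features of ribosomal protein genes and their pseudogenes took 0.388% and 0.362% of UMIs in all nuclei of the mCherry HFD mice and 0.127% to 0.207% in the others. In macrophage-like nuclei they took 0.420% and 0.401% against 0.148% to 0.236%. The ribosomal RNA feature Rn18s-rs5 was lowest in all nuclei of the mCherry HFD mice, at 0.289% and 0.589% against 1.03% to 8.74% in the others. Per 1000 ribosomal-protein UMIs, a scale added after the values were seen, Dkc1 in all nuclei was 7.42 and 8.001 in mCherry HFD, within the 6.79 and 8.18 of mCherry SD, and above the 3.94 to 5.63 of the transgenic mice. In macrophage-like nuclei it was 8.80 and 9.73 in mCherry HFD and 1.52 to 4.31 in the other 6. In progenitor-like nuclei it was 4.54 and 6.07 in mCherry HFD, overlapping the 2.36 to 5.67 of the other 6. In adipocyte-like nuclei it was 7.42 and 7.98 in mCherry HFD, below the 12.3 and 9.76 of mCherry SD. The transgenic mice stood there at 3.80 to 7.92. Tinf2 on this scale was 3.62 and 3.32 in all nuclei of the mCherry HFD mice (the others 1.61 to 3.18). In macrophage-like nuclei it was 3.69 and 3.92 (the others 1.38 to 2.71). It overlapped the others in progenitor-like nuclei (3.48 and 3.04, against 1.37 to 4.25) and adipocyte-like nuclei (3.37 and 2.00, against 0.634 to 3.02). Summed adipocyte markers were lowest in macrophage-like nuclei of the mCherry HFD mice (422 and 622 CPM, against 1098 to 2547 CPM), and summed cycling markers were highest there (183 and 155 CPM, against 26.1 to 98.7 CPM). Progenitor markers were also highest there (343 to 739 CPM, against 139 to 296 CPM), and macrophage markers (7326 to 7338 CPM, against 7860 to 16134 CPM) and endothelial markers (34.6 to 60.7 CPM, against 61.3 to 119 CPM) were lowest. The part of these properties in the 2 genes' differences was not tested.

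The other 2 large classes gave fewer calls for these 2 genes, 1 in progenitor-like and none in adipocyte-like nuclei. In progenitor-like nuclei Dkc1 was 5.47 and 4.11 CPM in mCherry SD, 14.6 and 18.6 CPM in mCherry HFD, 9.17 and 4.85 CPM in Tert HFD, and 5.79 and 2.80 CPM in TertCi HFD. It was lower in TertCi HFD by -1.55 (SE 0.38, adjusted p = 0.0149), a call lost without mCherry HFD rep128 (0.0798) or rep129 (0.0873) or TertCi HFD rep140 (0.084), and with DESeq2 (0.0813). Its differences with diet (1.59, adjusted p = 0.0606) and in Tert HFD (-0.91, adjusted p = 0.137) did not pass. Tinf2 was not called in progenitor-like nuclei, where its lowest adjusted p was 0.107. Thus 0 of 9 genes tested in this class were called with diet, beside 12.8% of all genes, and DESeq2 called none. Dkc1 and Tinf2 had an unadjusted p under 0.05 in edgeR, as did 3434 of all 12187 genes.

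In adipocyte-like nuclei, which rest on 99 and 27 nuclei in the mCherry HFD mice, Dkc1 was 16.5 and 17.0 CPM in mCherry SD, 24.1 and 24.1 CPM in mCherry HFD, 11.6 and 11.1 CPM in Tert HFD, and 7.85 and 6.54 CPM in TertCi HFD. The point values of the groups did not overlap, but that of mCherry HFD rep129 rests on few UMIs in 27 nuclei. How often other genes separate the groups in this way was not counted, so the order is not read as a result. None of 8 tested genes was called in any comparison. This class too sat in different clusters by group. Cluster 9 held 90.9% and 94.4% of it in mCherry SD, cluster 1 held 92.9% and 70.4% in mCherry HFD, 82.9% in Tert HFD rep134 and 90.5% and 62.7% in TertCi HFD, and cluster 16 held 74.0% in Tert HFD rep136. Within cluster 1 Dkc1 was 0 and 7.55 CPM in mCherry SD (0 and 2 UMIs), 21.7 CPM in mCherry HFD rep128 (28 UMIs), 12.04 and 10.6 CPM in Tert HFD, and 7.20 and 5.69 CPM in TertCi HFD. The called share of all tested genes was 13.4% with diet, 0.223% for Tert HFD and 6.02% for TertCi HFD. The lowest adjusted p was 0.0542, for Dkc1 in TertCi HFD (-1.33). Tinf2 was next, at -2.15 in TertCi HFD (adjusted p = 0.0634). At an unadjusted p under 0.05 there were 0 of 8 with diet, 1 in Tert HFD (Dkc1) and 3 in TertCi HFD (Dkc1, Tinf2 and Pot1b). Of all 13011 genes 3868, 2424 and 3209 passed in the same order. DESeq2 also called none of the 8. Tert and Acd had too few UMIs to be tested in this class.

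The diet difference of Dkc1 was tested between classes, in a fit with the mouse as a block. It was larger in macrophage-like than in adipocyte-like nuclei by 2.92 on the log2 scale (SE 0.68, adjusted p = 0.0124). In both classes the mCherry SD and mCherry HFD nuclei lay mostly in different clusters, as given above, and the part of this in the difference was not tested. This was the sole difference between classes called among 9 genes tested for 3 pairs of classes in 3 comparisons, and 5.75% of all genes were called in this one. With diet 2.7% of all genes differed between progenitor-like and adipocyte-like nuclei and 3.46% between macrophage-like and progenitor-like nuclei. The shares for macrophage-like against adipocyte-like, progenitor-like against adipocyte-like and macrophage-like against progenitor-like nuclei were 1.87%, 0.454% and 0.953% in Tert HFD, and 3.12%, 1.37% and 2.02% in TertCi HFD. It was lost without mCherry SD rep146 (2.45, adjusted p = 0.259) and without mCherry HFD rep128 (3.32, adjusted p = 0.0747). For Tinf2 no difference between classes was called (lowest adjusted p = 0.505).

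Of the 10 genes, 4 were called with diet in all nuclei, against 40.7% of all tested genes. In Tert HFD 2 of 10 were called, against 21.8%, and in TertCi HFD 3 of 10, against 35.5%. In macrophage-like nuclei Dkc1 and Tinf2 were the 2 called of 9 tested in each comparison with mCherry HFD or with diet, against 20.2% of all genes with diet, 17.3% in Tert HFD and 23.2% in TertCi HFD. These shares lie near those of all genes. The median log2 fold change of the 10 genes in all nuclei was -0.05 with diet, 0.11 in Tert HFD and -0.01 in TertCi HFD, beside 0.05, -0.05 and -0.10 over all features.

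**Figure D4:**
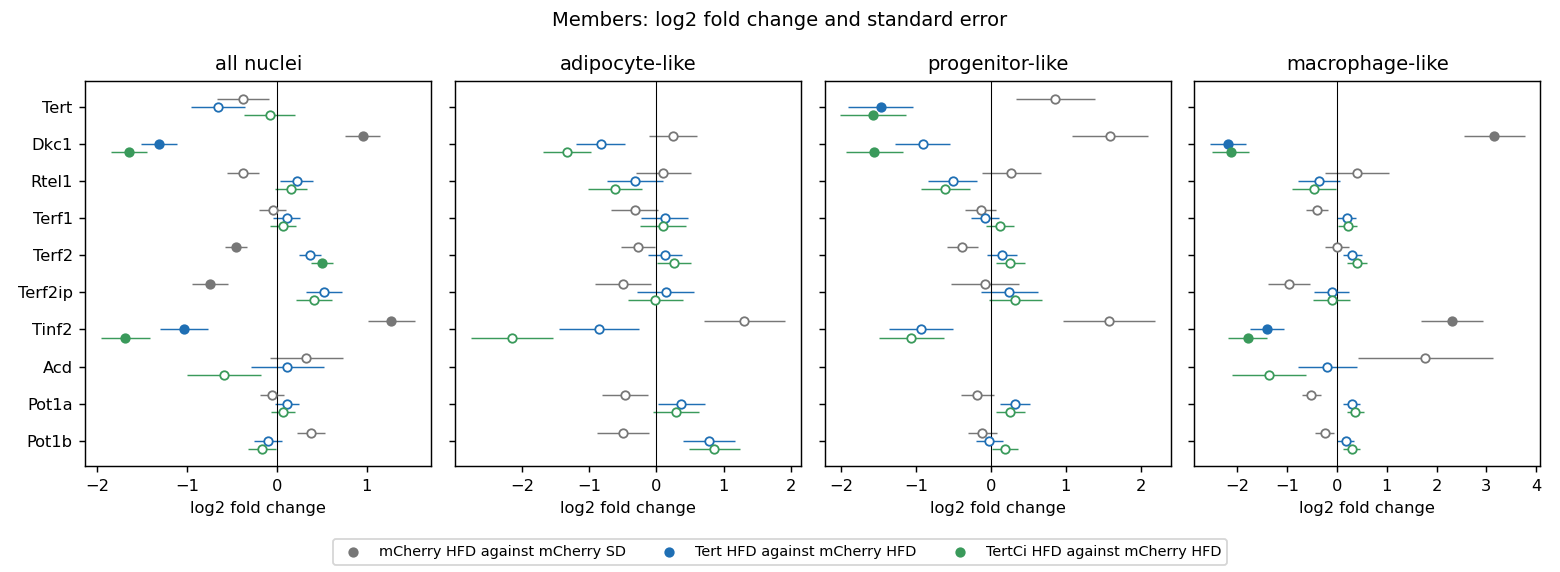
Log2 fold change (horizontal axis) with its SE, derived from the F statistic, for each gene in all nuclei and in 3 classes, coloured by comparison. Filled points passed the adjusted p threshold and open points did not. Filled points belong to Dkc1 and Tinf2 except for Tert in progenitor-like nuclei and Terf2 and Terf2ip in all nuclei.

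Rtel1, a helicase that unwinds telomere loops and DNA secondary structures during replication, was highest in adipocyte-like nuclei (12.7 ± 3.72 CPM, SD, n = 8) and lowest in macrophage-like nuclei (6.26 ± 1.97 CPM, SD, n = 8). It was higher in adipocyte-like than in macrophage-like nuclei in 8 of 8 mice, although free RNA carried it at 12.6 ± 2.36 CPM (SD, n = 8), above adipocyte-like nuclei of the same mouse in 6 of 8 mice. In all nuclei it lay between 8.004 and 10.8 CPM over the 8 mice, and no comparison was called.

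Terf1 and Terf2 encode the shelterin proteins that bind double-stranded telomere repeats. Terf1 was highest in endothelial-like nuclei (82.7 ± 14.1 CPM, SD, n = 7) and lowest in adipocyte-like nuclei (38.6 ± 11.9 CPM, SD, n = 8), which were below progenitor-like nuclei (64.2 ± 5.22 CPM, SD, n = 8) in 8 of 8 mice. Adipocyte-like nuclei of mCherry HFD rep129, with 11 Terf1 UMIs, stood at 66.3 CPM and the other 7 at 29.9 to 42.2 CPM. Free RNA carried Terf1 at 53.4 ± 8.16 CPM (SD, n = 8), above adipocyte-like nuclei in 7 of 8 mice and below progenitor-like nuclei in 7 of 8. Terf1 was called in no comparison. Terf2 varied less over the classes, from 45.8 ± 19.9 CPM (SD, n = 8) in the mesothelial-led mixed nuclei to 69.7 ± 10.0 CPM (SD, n = 6) in dendritic-like nuclei, and the ranges of neighbouring classes overlapped. Its free-RNA level was 46.04 ± 6.38 CPM (SD, n = 8), below adipocyte-like nuclei in 8 of 8 mice, macrophage-like nuclei in 7 and progenitor-like nuclei in 6.

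Terf2 in all nuclei was 51.8 and 54.9 CPM in mCherry SD mice, 56.2 and 50.5 CPM in mCherry HFD, 59.4 and 48.6 CPM in Tert HFD and 56.7 and 52.0 CPM in TertCi HFD. The groups overlapped on this scale. The TMM scaling of edgeR gave a fall with diet of -0.46 (SE 0.12, adjusted p = 0.0195) and a higher level in TertCi HFD by 0.50 (SE 0.12, adjusted p = 0.0166). Scaled by library totals alone the differences were 0.0025 and 0.024, so both calls rest on the scaling. The diet call was also lost without a filter on low counts (0.0535), and without mCherry SD rep144 (0.0824) or mCherry HFD rep128 (0.0784) or rep129 (0.101). The TertCi call was lost without mCherry HFD rep128 (0.0746) or rep129 (0.0922) or TertCi HFD rep138 (0.0778) or rep140 (0.0875).

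Terf2ip encodes RAP1, the partner of TERF2 that has roles outside telomeres in metabolic gene regulation. It was 14.2 and 14.3 CPM in mCherry SD mice, 12.1 and 11.4 CPM in mCherry HFD, 12.95 and 13.4 CPM in Tert HFD, and 11.5 and 11.03 CPM in TertCi HFD, over all nuclei. It fell with diet by 0.74 (SE 0.20, adjusted p = 0.0204). The call was lost when scaled by library totals (-0.28, adjusted p = 0.281), and without mCherry SD rep144 (0.0861) or mCherry HFD rep128 (0.0967) or rep129 (0.0792). Over the classes Terf2ip ranged from 10.6 to 16.1 CPM, and the ranges of neighbouring classes overlapped. Free RNA carried it at 14.5 ± 4.16 CPM (SD, n = 8), above each of the 3 large classes in 5 or 6 of 8 mice, so its level in them is not set apart from the background.

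Acd encodes TPP1, which recruits telomerase and binds the POT1 proteins. It was the sparsest shelterin gene by UMIs, with 551 in all nuclei and class means of 1.75 to 5.11 CPM, beside 3.85 ± 1.76 CPM (SD, n = 8) in free RNA. It was called in no comparison.

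**Figure D5:**
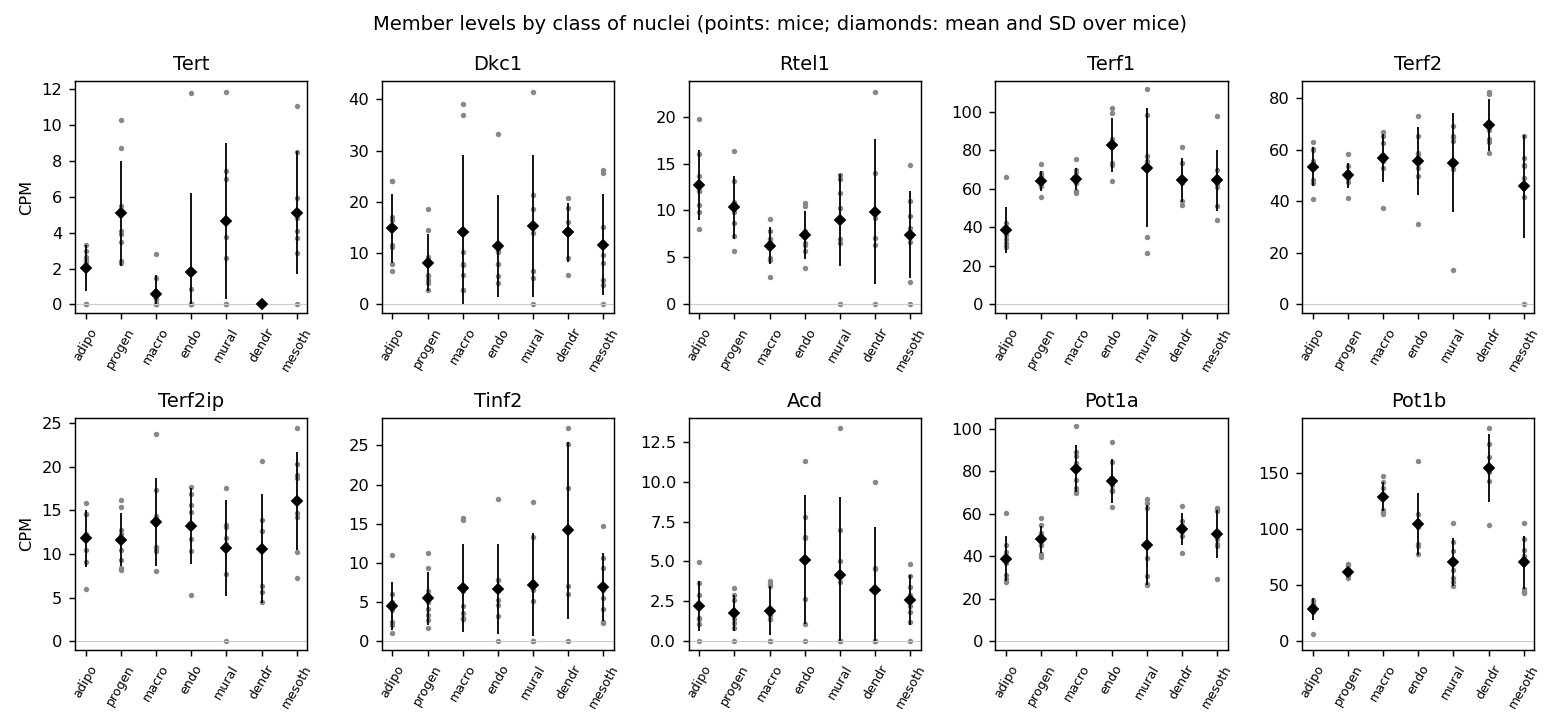
Level of each gene in CPM by class of nuclei (adipocyte-like, progenitor-like, macrophage-like, endothelial-like, mural-like, dendritic-like and mesothelial-led mixed); grey points are mice, and black diamonds with bars are the mean and SD over mice, drawn down to 0 where the SD is larger than the mean. Pot1b and Pot1a are high in macrophage-like nuclei (128.95 and 81.1 CPM) and low in adipocyte-like nuclei (28.6 and 38.8 CPM).

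Pot1a and Pot1b encode the shelterin proteins that bind the single-stranded end of the telomere, and the mouse carries both where most mammals carry a single POT1 gene. Of the 3 large classes, both were highest in macrophage-like nuclei in 8 of 8 mice. Pot1b was 147.7, 117.2, 130.4, 115.1, 137.0, 113.6, 128.7 and 141.9 CPM in macrophage-like nuclei of the 8 mice, in the order mCherry SD rep144 and rep146, mCherry HFD rep128 and rep129, Tert HFD rep134 and rep136, and TertCi HFD rep138 and rep140. In progenitor-like nuclei of the same mice it was 60.2, 61.6, 68.7, 59.9, 58.4, 56.6, 61.6 and 67.7 CPM. In adipocyte-like nuclei it was 26.2, 30.2, 29.2, 6.03, 36.5, 33.4, 32.5 and 34.9 CPM. The 3 classes did not overlap. The low value of 6.03 CPM, in mCherry HFD rep129, rests on 1 UMI. Dendritic-like nuclei were higher still, at 155 ± 30.4 CPM (SD, n = 6), and overlapped macrophage-like nuclei. Free RNA carried Pot1b at 59.9 ± 11.8 CPM (SD, n = 8), below macrophage-like and above adipocyte-like nuclei in 8 of 8 mice, and below progenitor-like nuclei in 4 of 8.

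Pot1a was highest in macrophage-like nuclei (81.1 ± 11.1 CPM, SD, n = 8) and endothelial-like nuclei (75.3 ± 10.3 CPM, SD, n = 7). It was 47.8 ± 6.37 CPM (SD, n = 8) in progenitor-like nuclei and 38.8 ± 10.6 CPM (SD, n = 8) in adipocyte-like nuclei. Free RNA carried Pot1a at 46.4 ± 4.77 CPM (SD, n = 8), below macrophage-like nuclei in 8 of 8 mice but above progenitor-like nuclei in 5 and adipocyte-like nuclei in 6. Over mice, the mean in macrophage-like nuclei was 4.51-fold that in adipocyte-like nuclei for Pot1b and 2.09-fold for Pot1a. Neither gene was called in any comparison of groups in any class or in all nuclei. In all nuclei Pot1b stood at 101.0 and 89.8 CPM in mCherry HFD against 50.5 to 77.3 CPM in the other 6 mice. After TMM scaling, the scale of the tests, the mice overlapped. There Pot1b was 79.2 and 73.0 CPM in mCherry HFD against 52.4 to 74.1 CPM in the other 6. The share of macrophage-like nuclei was larger in mCherry HFD (50.6% and 50.6%, against 3.97% to 27.8%), and its part was not tested.

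The promoter stretches of this gene pair are shown because the pair differed between classes in the same direction. They lie at chr6:25809219-25809468 for Pot1a and chr17:55712637-55712886 for Pot1b, both on the minus strand of GRCm38.p6, with motif matches in capitals as above.
Pot1a: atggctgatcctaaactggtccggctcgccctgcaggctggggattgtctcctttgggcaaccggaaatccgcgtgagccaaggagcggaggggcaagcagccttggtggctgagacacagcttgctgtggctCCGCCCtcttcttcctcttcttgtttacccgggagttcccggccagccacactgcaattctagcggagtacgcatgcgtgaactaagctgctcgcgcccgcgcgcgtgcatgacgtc
Pot1b: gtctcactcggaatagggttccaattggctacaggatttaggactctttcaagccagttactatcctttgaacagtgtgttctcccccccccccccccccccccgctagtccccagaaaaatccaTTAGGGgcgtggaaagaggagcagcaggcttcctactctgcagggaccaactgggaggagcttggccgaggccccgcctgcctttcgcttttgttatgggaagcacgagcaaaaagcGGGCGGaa
Each held 1 GC box match, a motif found in 32.7% of promoter stretches, and Pot1b also held 1 TTAGGG match, found in 9.32%. Of the 10 genes, 9 were in the promoter table, and matches of different motifs did not overlap in them. Pot1b has 2 entries in that table, of which the first is shown and the other was not examined. A match is a description of letters only.

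The 2 transgenic groups were then set against each other. None of the 10 genes was called by edgeR between Tert HFD and TertCi HFD in all nuclei or in the 3 classes, and no other tested gene was (0% called). At an unadjusted p under 0.05 Tinf2 passed in all nuclei and in adipocyte-like nuclei, the sole one of the 10 to do so, beside 1898 of 21101 genes in all nuclei, 586 of 13011 in adipocyte-like, 608 of 12187 in progenitor-like and 472 of 13489 in macrophage-like nuclei. DESeq2 also called none of the 10 genes. The difference of Tert HFD from TertCi HFD is given with an interval of 2 SE, as defined above. In all nuclei it was -0.57 (-1.18 to 0.03) for Tert, 0.33 (-0.07 to 0.73) for Dkc1 and 0.65 (0.10 to 1.20) for Tinf2. In progenitor-like nuclei it was 0.10 (-0.92 to 1.13) for Tert.

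Other genes of telomere biology were followed through a list of 46 genes fixed by name, all of them among the counted features. Their levels in free RNA are not given here, so changes in them are not set apart from the background. In all nuclei 45 were tested. With diet 9 rose and 9 fell (40%, beside 40.7% of all genes), in Tert HFD 3 were higher and 3 lower than in mCherry HFD (13.3%, beside 21.8%), and in TertCi HFD 5 were higher and 9 lower (31.1%, beside 35.5%). In macrophage-like nuclei 3 of 40 rose with diet and none fell (7.5%, beside 20.2% of all genes), and 2 of 40 were lower in each transgenic group (5%, beside 17.3% in Tert HFD and 23.2% in TertCi HFD). In progenitor-like nuclei 2 of 36 rose and 1 fell with diet (8.33%, beside 12.8%), and 1 of 36 was lower in each transgenic group (2.78%, beside 11% in Tert HFD and 19.8% in TertCi HFD). In adipocyte-like nuclei 1 of 39 rose and 3 fell with diet (10.3%, beside 13.4%), none was called in Tert HFD (beside 0.223%) and 1 was lower in TertCi HFD (2.56%, beside 6.02%).

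Xrcc6 encodes Ku70, which binds broken DNA ends and telomeres, and was called most often. It stood at 8.93 and 12.3 CPM in all nuclei of mCherry SD mice, 48.0 and 51.0 CPM in mCherry HFD, 16.1 and 7.34 CPM in Tert HFD and 12.3 and 11.7 CPM in TertCi HFD. The mCherry HFD mice were again highest, an order that was not counted over other genes. Xrcc6 rose with diet by 1.77 in all nuclei (adjusted p = 0.00168), by 2.53 in macrophage-like, 2.00 in progenitor-like and 2.23 in adipocyte-like nuclei. Against mCherry HFD it was lower in Tert HFD by -1.74 in all, -2.21 in macrophage-like and -1.90 in progenitor-like nuclei. In TertCi HFD it was lower by -1.575, -1.99 and -1.94 in the same order. In adipocyte-like nuclei it was lower in TertCi HFD by -2.07 and was not called in Tert HFD. Its partner Xrcc5, encoding Ku80, fell with diet by 0.70 in all nuclei (adjusted p = 0.00881).

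Nop10 and Nhp2 encode partners of dyskerin in the telomerase core. Nop10 rose with diet in all nuclei by 1.25 (adjusted p = 0.0207). It was lower there by -1.69 in Tert HFD (adjusted p = 0.0161) and by -1.71 in TertCi HFD (adjusted p = 0.00814), and in macrophage-like nuclei by -2.15 and -2.36. Whether any group but mCherry HFD carried Nop10 past the filter on low counts in macrophage-like nuclei is not given. Its calls in that class are thus a description, and they are among the calls counted above. Nhp2 rose with diet in all nuclei by 1.68 (adjusted p = 0.0256) and was lower in TertCi HFD by -1.46 (adjusted p = 0.0426). Exo1 and Dna2, nucleases that trim DNA ends, rose with diet by 2.32 and 1.65 (adjusted p = 0.00664 and 0.00139) in all nuclei, and Dna2 and the primase subunit Prim1 rose in macrophage-like nuclei by 2.14 and 2.77. In all nuclei summed cycling markers were 112 to 119 CPM in mCherry HFD and 23.7 to 60.6 CPM in the other mice, and adipocyte markers 2028 to 2317 CPM against 9375 to 18980 CPM. The part of these in the differences over all nuclei was not tested. A sublist holds the CST group, which fills in the telomere end, and genes of telomere replication. Of its 6 genes tested in progenitor-like nuclei 2 were called with diet (33.3%, beside 12.8% of all genes). Ten1 was higher by 1.99 (adjusted p = 0.0243) and Pola1 lower by -0.59 (adjusted p = 0.0355). In each transgenic group 0 of these 6 were called (beside 11% in Tert HFD and 19.8% in TertCi HFD). In all nuclei 4 of 9 were called with diet (44.4%, beside 40.7%), 1 of 9 in Tert HFD (11.1%, beside 21.8%) and 5 of 9 in TertCi HFD (55.6%, beside 35.5%). In macrophage-like nuclei 2 of 8 were called with diet (25%, beside 20.2%) and 0 of 8 in each transgenic group (beside 17.3% and 23.2%). In adipocyte-like nuclei 0 of 6 were called with diet, in Tert HFD or in TertCi HFD (beside 13.4%, 0.223% and 6.02%). Of the other sublists, telomerase assembly and RNA processing gave 8 of 15 calls with diet in all nuclei (53.3%). Shelterin partners gave 2 of 9 there (22.2%), and helicases, repair and chromatin 4 of 12 (33.3%). Daxx, a histone chaperone that works with ATRX at telomeres, was higher in all nuclei by 0.90 in Tert HFD (adjusted p = 0.0278). It was also higher there by 0.92 in TertCi HFD (adjusted p = 0.0154) and lower with diet by -0.83 (adjusted p = 0.0195). The flap nuclease Fen1 was lower in TertCi HFD by -1.90 (adjusted p = 0.0468). Pif1, a helicase that removes telomerase from ends, was also called there (-2.49, adjusted p = 0.0459), but passed the filter on low counts through the 2 mCherry HFD mice alone, so its call is a description, and it is 1 of the 9 lower calls counted above. In adipocyte-like nuclei Rif1, Tnks2 and Atrx fell with diet by 1.37, 0.74 and 0.73, between nuclei that lay mostly in cluster 9 in mCherry SD and in cluster 1 in mCherry HFD. Summed cycling markers in this class were 35.8 to 78.4 CPM in mCherry HFD and 15.9 to 31.0 CPM in the other mice. Mast markers were 15.3 to 18.1 CPM against 0.363 to 12.2 CPM, and the part of these was not tested.

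Genes whose levels followed those of 3 members most closely were found by Pearson correlation of log2(CPM + 1) over 45 sums of 1 class in 1 mouse. For Tert they were BC034090 (r = 0.83), Plekha4 (r = 0.81) and Zfhx4 (r = 0.79). For Terf1 they were Klf7 (r = 0.87), Ifi203 (r = 0.86) and Mbd2 (r = 0.86). For Dkc1 they were Cox7a2 (r = 0.80), Gm42726 (r = 0.73) and Gm37240 (r = 0.73). Sums from the same mouse share a library and its depth, and these values are a description.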

How the data were processed

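Single-nucleus UMI counts of 8 libraries were used, 1 per mouse, and the replicates are separate mice per the labels. The authors deposited whole-number counts per gene and barcode, unnormalised and for all barcodes; per the submitters' processing notes they used bcl2fastq 2.20.0 and Cell Ranger 5.0.1 with build mm39, whereas the file headers name Cell Ranger 7.1.0. Counting by strand is not given in the sources used here.

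Barcodes were kept above 0.1 of the 99th percentile of the 5000 largest (at least 500 UMIs, giving thresholds of 987 to 4705 UMIs). They also had to hold 300 or more genes, and no more than 5% of their UMIs could be mitochondrial. The doublet caller of scanpy 1.11.5 marked at most 0.154% of a library and had thus not worked, so the highest doublet scores were removed at 0.8% per 1000 nuclei. Counts were scaled to 10000 per nucleus, and 2000 variable genes, 30 components and leidenalg 0.10.2 gave the clusters. These were named from marker lists, with a rule that was changed once (2 versions) after the clusters were seen.

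UMIs were summed per mouse and class (at least 20 nuclei) and tested in edgeR 4.0.16 (TMM, filterByExpr, quasi-likelihood test, 1 factor of 4 groups, Benjamini-Hochberg adjustment over all genes, threshold 0.05), after a test on simulated counts. There, 35% of 100 genes changed by 1 log2 unit and 81% of 100 changed by 2 were recovered among 13489 genes of the macrophage-like sums, Tert HFD against mCherry HFD, with 6 false calls. DESeq2 1.42.0, library totals, no filter, a 1000 UMI threshold, classes by marker score and each mouse left out were alternatives; sets without single clusters were added after seeing the data. Promoter sequences are from RefSeq on GRCm38.p6 and no position from it is set against the deposited counts. In RefSeq, Dkc1 overlaps Mpp1 and Gm25520, Tinf2 overlaps Gmpr2 and Acd overlaps Carmil2 and Pard6a. Terf2 overlaps LOC108167553 and Mir7075, Terf2ip overlaps Gm6793, and Pot1b overlaps Gm22654 and Gm18648. Without a stated strand the reads of overlapping genes may not be told apart. All 10 genes, the list of 46 and the markers were chosen with earlier results of these data known. All 10 genes were to be named. Of other telomere genes called, at most the 4 with the largest fold change per comparison and class were to be named. Xrcc5 and further comparisons of Nop10, Nhp2, Xrcc6 and Daxx were added after their values were seen.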

Additional observations from a re-analysis of the deposited data

Results flagged for a closer look

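The difference of Dkc1 between mCherry HFD and mCherry SD mice was larger in macrophage-like than in adipocyte-like nuclei by 2.92 on the log2 scale (SE 0.68, adjusted p = 0.0124, edgeR interaction test with the mouse as a block). It drew attention because 2 classes of nuclei from the same mice differed in the size of 1 diet effect. The adipocyte-like sums of the mCherry HFD mice hold 33 and 4 Dkc1 UMIs and the macrophage-like sums of the mCherry SD mice hold 2 each. In both classes the nuclei of the 2 groups lay mostly in different clusters (in adipocyte-like nuclei, 90.9% and 94.4% in cluster 9 in mCherry SD, and 92.9% and 70.4% in cluster 1 in mCherry HFD), and the part of this in the difference was not tested. The call was lost without mCherry SD rep146 (2.45, adjusted p = 0.259) and without mCherry HFD rep128 (3.32, adjusted p = 0.0747).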

How the results depend on the processing

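Counting calls of the 10 genes over the 4 sets of nuclei, diet gave 6, Tert HFD 5, TertCi HFD 7 and Tert HFD against TertCi HFD 0. The 5 and the 7 each include Tert in progenitor-like nuclei, which passed the filter on low counts through the mCherry HFD mice alone. Leaving out 1 mouse, with a lone mouse assumed to vary like the other groups, gave 2 to 7, 2 to 5, 3 to 8 and 0 to 0. Tert HFD fell to 3 with DESeq2 and to 3 with macrophage-like cluster 4 alone. Differences between classes gave 1 call, 3 without a filter on low counts, 2 at 1000 UMIs, 2 with classes by marker score and 0 to 3 without 1 mouse; it was not run in DESeq2. The highest of the 3 large classes was the same for 6 of 10 genes at 1000 UMIs and for 8 to 10 without 1 mouse. The other settings kept these counts within 1.5 times. Terf2 with diet in all nuclei turned from -0.46 to 0.0025 under library totals. Without TMM the median of all genes moved, with diet, from 0.05 to 0.51 in all nuclei, and the share of higher calls from 54.6% to 79.8%, from 62.7% to 83.9% in adipocyte-like, 65.5% to 82.6% in progenitor-like and 54.2% to 67.3% in macrophage-like nuclei. In Tert HFD it went from 50.1% to 26.9%, 34.5% to 13.3%, 27.6% to 14.5% and 38.3% to 25.2% in the same order. In TertCi HFD it went from 45.4% to 18.8%, 40.1% to 7.67%, 33.8% to 15.6% and 41.1% to 26.5%. No paired analysis was possible because the groups share no replicate number. Depth limits Tert and Acd most, with 664 and 551 UMIs in all nuclei.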

Other observations

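Macrophage-like nuclei were split by cycling markers after the data were seen, in the 3 mice with enough nuclei. Nuclei with UMIs of at least 3 cycling markers stood above those with none in 3 of 3 mice for Rtel1 (21.3 ± 8.47 against 5.61 ± 2.22 CPM, SD, n = 3), Terf1 (84.8 ± 15.8 against 56.1 ± 5.33 CPM, SD, n = 3), Terf2 (72.4 ± 7.41 against 55.2 ± 3.22 CPM, SD, n = 3) and Tinf2 (20.5 ± 10.8 against 11.5 ± 4.53 CPM, SD, n = 3). Pot1b was lower in the cycling nuclei in 3 of 3 mice, at 111 ± 8.70 against 127.8 ± 9.07 CPM (SD, n = 3). Dkc1 was higher in 1 of 3. The split favours nuclei of high depth, and the difference was not tested.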
